A study of Mus musculus with 7 samples.

Results

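The 10 genes described here encode the core proteins that fuse and divide mitochondria: the mitofusins *Mfn1* and *Mfn2*, the inner membrane fusion gene *Opa1*, the OPA1 proteases *Oma1* and *Yme1l1*, the fission dynamin *Dnm1l* (also called *Drp1*), and its adaptors *Mff*, *Fis1*, *Mief1* and *Mief2*. They were chosen by name, and each of the 10 has 1 row among the 22877 genes of the authors' table. The oocytes came from secondary follicles of C57BL/6J mice aged 8 weeks, and the poly(A) RNA of 5 pooled oocytes was amplified by the Smart-Seq2 protocol for each library. The labels give 3 libraries from *Mfn1-/-* mice and 4 from WT mice, and the study's methods describe the WT mice as littermates. *Mfn1-/-* stands for *Mfn1* fl/fl mice that carry Zp3-Cre, a recombinase driven by the promoter of a zona pellucida gene, so *Mfn1* is deleted in growing oocytes while the granulosa cells around them keep it.

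The question put to these values was whether the transcripts of other dynamics genes rise when *Mfn1* is lost. By qRT-PCR, an assay apart from these values, the study reports unaltered *Mfn2*, *Opa1* and *Drp1* in *Mfn1-/-* oocytes. For each gene the table gives 1 mean of normalized counts per genotype. Values of single libraries were not analysed here, and the p-values the authors computed were not used. No replicate spread or test is therefore given here, and each difference is a description of 2 means. The study reports more secondary follicles with few granulosa cell layers, and few with many, in *Mfn1-/-* ovaries. If the pooled oocytes differed in the same way, follicle stage and genotype cannot be told apart in these means. A difference is given as log2 of the *Mfn1-/-* mean over the WT mean after 0.1 was added to both, which makes differences between low means smaller than their ratio, and a difference of at least 2-fold either way served as the rule of size. The smallest values above the table's lowest mean of 0.01 shrink with gene length: across classes of genes whose median exonic length differs 37.9-fold, the 5th percentile of the values above 0.01 differs 29.1-fold in *Mfn1-/-* and 28.4-fold in WT oocytes. The values are thus largely on a scale per length, and levels of different genes are compared on it. The fit is rough: that percentile times the median length still differed 2.20-fold across the classes in *Mfn1-/-* and 3.03-fold in WT oocytes.

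Mitochondria fuse in steps. MFN1 and MFN2 are large GTPases of the outer membrane that tether and merge the outer membranes of neighbouring mitochondria, and OPA1 then merges the inner membranes. OPA1 is cut by the inner membrane proteases OMA1 and YME1L1, and the balance of its long and short forms sets how well it fuses. Division runs through DNM1L, a cytosolic dynamin that MFF, FIS1, MIEF1 and MIEF2 recruit to the outer membrane, where it constricts the organelle. In the mouse oocyte, mitochondria are numerous, small and round, and they are passed on to the embryo.

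MFN1 and MFN2 are paralogs, so it matters whether reads of one could have been counted for the other. The 2 stretches below are the pair of coding windows of 1 read length (75 bases) that are most alike between them, shown 5′ to 3′ on the strand of each gene with shared bases in capitals (GRCm38, GENCODE M21). The *Mfn1* stretch lies in exon 7 of 18 at chr3:32546618-32546692 on the plus strand, and the *Mfn2* stretch in exon 9 of 20 at chr4:147887209-147887283 on the minus strand.
Mfn1: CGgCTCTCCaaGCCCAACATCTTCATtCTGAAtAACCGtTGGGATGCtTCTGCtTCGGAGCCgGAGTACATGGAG
Mfn2: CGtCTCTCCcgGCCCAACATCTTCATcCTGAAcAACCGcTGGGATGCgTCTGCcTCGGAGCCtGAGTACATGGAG
Of the 75 bases, 66 were identical (88%), and the longest identical run anywhere between the coding sequences was 21 bases. A run of 75 or more bases with 95% or more identity was not found between transcripts of any pair of the 10 genes.

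*Mfn1* (chromosome 3, 32529465 to 32579239, plus strand) was the one gene of the 10 that passed the 2-fold rule, which 7.65% of all genes passed. Its mean was 0.0577 normalized counts in *Mfn1-/-* against 0.616 in WT oocytes, so that 9.37% of the WT mean was left. The log2 difference was -2.18 (4.54-fold on the scale with 0.1 added). Among the 4495 genes whose mean over all libraries was within 2-fold of that of *Mfn1*, 0.356% had a log2 difference as low or lower, and 15.3% were past 2-fold in either direction. In WT oocytes the level of *Mfn1* lay above that of 67.6% of all genes, and in *Mfn1-/-* oocytes above that of 31.4%. The table does not separate exons, so reads of a transcript without the deleted part would count towards the *Mfn1-/-* mean. Outside its coding sequence *Mfn1* also holds stretches of that length and identity in common with 77 other genes. Of these 47 have a row, the most abundant being *Slc3a2* with means of 16.6 and 10.9, and whether their reads add to its mean was not tested.

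Oocytes with lower *Mfn1* and fewer oocytes that carry *Mfn1* RNA cannot be told apart in libraries of pooled cells. All 12 listed oocyte markers had a row, and ran from 2.74 to 1310 in *Mfn1-/-* and from 1.51 to 1120 in WT oocytes. Their sums were 4088 and 3675. Of the 12, 9 had the higher mean in *Mfn1-/-* and 3 in WT oocytes. The granulosa cell markers, of which 11 of 12 had a row, ran from 0.0127 to 1.87 in *Mfn1-/-* and from 0.0116 to 0.954 in WT oocytes and summed to 2.23 and 1.51. None of the 11 was at the lowest mean in either genotype, but 8 had a mean over the libraries under 0.1. *Inha*, a subunit of inhibin, made up most of both sums. Of the 11, 4 had the higher mean in *Mfn1-/-* and 7 in WT oocytes, and without *Inha* the sums were 0.356 and 0.552. The theca and stroma markers, of which 5 of 6 had a row, summed to 0.163 and 0.174, and all 5 had a mean over the libraries under 0.1. Of the 4 blood markers 0 had a row. What such cells add to the *Mfn1* left in *Mfn1-/-* oocytes was not tested.

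**Figure D1:**
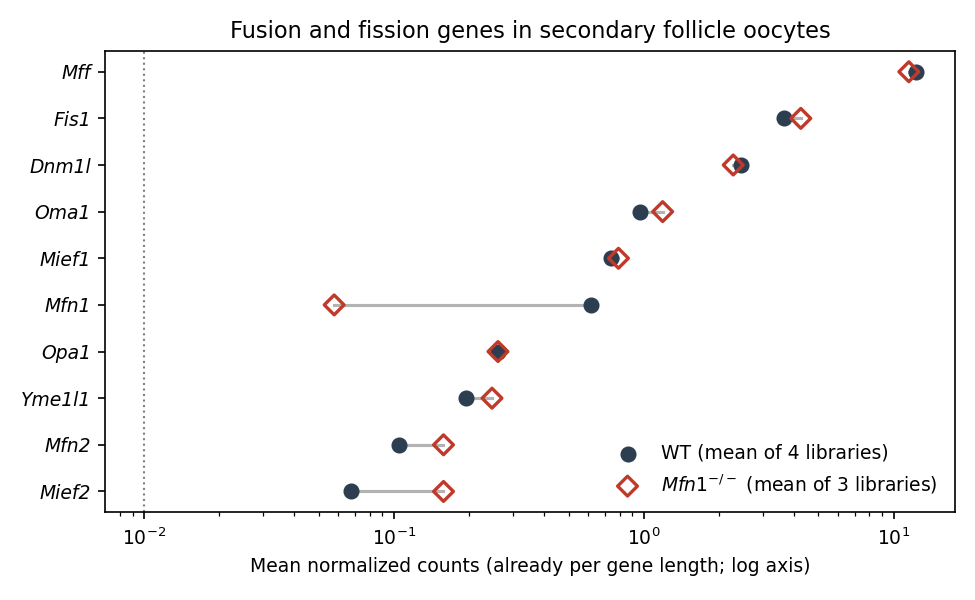
Mean normalized counts of the 10 genes (log axis) in WT (filled circles, mean of 4 libraries) and *Mfn1-/-* oocytes (open diamonds, mean of 3), ordered by WT level. The dotted line is the lowest mean of the table, 0.01. *Mfn1* drops from the sixth place to the last, the first 5 genes keep their order, and the *Mfn2* and *Mief2* diamonds coincide at 0.158.

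*Mfn2* (chromosome 4, 147873599 to 147904704, minus strand), the mitofusin that remains, had a mean of 0.158 normalized counts in *Mfn1-/-* against 0.105 in WT oocytes. Its log2 difference of 0.33 is 1.26-fold on the scale with 0.1 added, and the plain ratio of the means was 1.50. This does not reach 2-fold, and 27.8% of the 4985 genes of similar mean had a log2 difference as high or higher. *Mfn2* was the minor mitofusin of WT oocytes, where the level of *Mfn1* was 5.87 times its own. Its share of the summed mitofusin level was 14.6% in WT and 73.2% in *Mfn1-/-* oocytes. That shift came mostly from the *Mfn1* side: *Mfn1* fell by 0.558 normalized counts, the *Mfn2* mean was 0.053 higher, and 0.053 is 9.49% of the *Mfn1* fall. The summed mitofusin level went from 0.721 to 0.216, which is 29.9% of the WT sum.

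**Figure D2:**
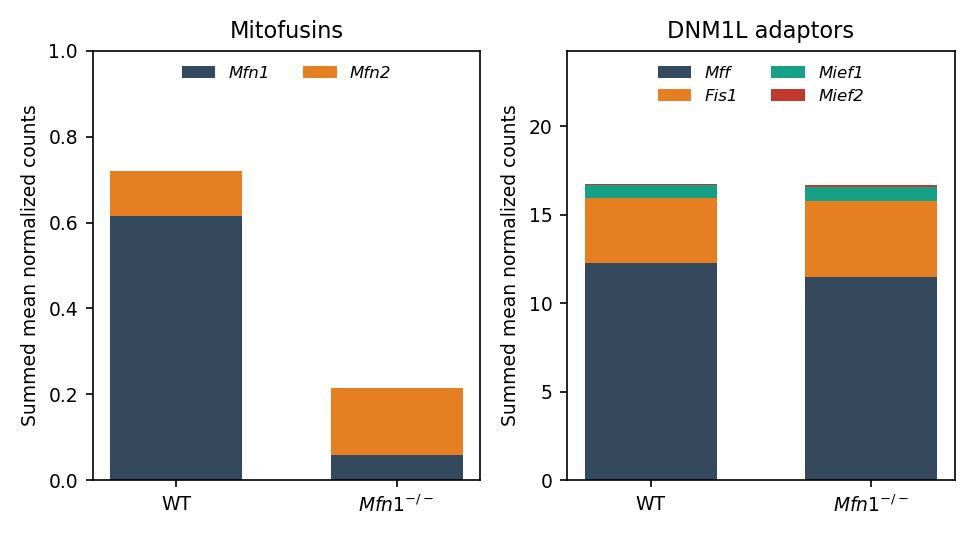
Summed mean normalized counts of the mitofusins (left) and of the DNM1L adaptors (right) in WT and *Mfn1-/-* oocytes, each bar divided by gene and both axes starting at 0. The mitofusin bar shrinks from 0.721 to 0.216 with the *Mfn2* segment the larger one in *Mfn1-/-* oocytes, while the adaptor bars stand at 16.7 in both genotypes.

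*Opa1* (chromosome 16, 29579334 to 29654884, plus strand), the fusion GTPase of the inner membrane, had the same mean of 0.261 normalized counts in both genotypes. With the level of *Opa1* added to those of the mitofusins, the fusion genes summed to 0.477 in *Mfn1-/-* against 0.982 in WT oocytes.

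The mean of *Oma1* (chromosome 4, 103313812 to 103371868, plus strand), the protease that cuts OPA1 when mitochondria are under stress, was 1.19 in *Mfn1-/-* against 0.966 in WT oocytes, a log2 difference of 0.28. *Yme1l1* (chromosome 2, 23156369 to 23199260, plus strand), which cuts OPA1 at another site and under resting conditions too, had means of 0.247 and 0.194 and a log2 difference of 0.24. Both proteases were within 2-fold, and the level of *Oma1* was 4.82 times that of *Yme1l1* in *Mfn1-/-* against 4.98 times in WT oocytes. The coding sequence of *Yme1l1* holds such a stretch in common with 1 other gene, *Gm14897*, which has no row.

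*Dnm1l* (chromosome 16, 16312230 to 16358959, minus strand) was the third most abundant gene of the 10 in both genotypes. Its mean was 2.28 normalized counts in *Mfn1-/-* against 2.44 in WT oocytes, and its log2 difference was -0.09. *Mff* (chromosome 1, 82724890 to 82752394, plus strand), an outer membrane anchor of DNM1L, was the most abundant gene of the group, with 11.5 in *Mfn1-/-* against 12.3 in WT oocytes and a log2 difference of -0.10. *Mff* lay above 92.4% and 93.3% of all genes, and its level was 5.04 times that of *Dnm1l* in each genotype. *Dnm1l* shares 243 of its 5203 exonic bases with *Gm49521* on the opposite strand, which has no row. *Mff* shares 195 of 9757 with *C430014B12Rik*, whose means were 0.171 and 0.208.

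The mean of *Fis1* (chromosome 5, 136953275 to 136966234, plus strand), a small tail-anchored adaptor, was 4.25 in *Mfn1-/-* against 3.63 in WT oocytes, a log2 difference of 0.22. *Mief1* (chromosome 15, 80234018 to 80253371, plus strand) and *Mief2* encode related outer membrane proteins that bind DNM1L directly. *Mief1* had means of 0.792 and 0.737 and a log2 difference of 0.09, which turned to -0.07 once the median of expressed genes was subtracted. It shares 213 of its 8106 exonic bases with *AC140267.1* on the same strand, which has no row.

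*Mief2* (chromosome 11, 60728398 to 60732951, plus strand) had the lowest WT mean of the 10, 0.0672 normalized counts, and a mean of 0.158 in *Mfn1-/-* oocytes. Its log2 difference of 0.63 (1.54-fold) was the highest of the group and under 2-fold, while with a pseudocount of 0.01 it was 1.12 and the plain ratio of the means was 2.35, both past 2-fold. Of the 4954 genes of similar mean, 14.0% had a log2 difference as high or higher. The WT mean of *Mief2* lay above the lowest mean of the table by 19.7 times the 5th percentile of genes in its length class, the smallest such distance among the 20 means of the group, followed by the *Mfn1-/-* mean of *Mfn1* itself at 29.8 times. *Mief2* made up 0.402% of the summed adaptor level in WT and 0.946% in *Mfn1-/-* oocytes, and *Mff* 73.5% and 68.9%. The adaptors together summed to 16.7 normalized counts in each genotype, with *Fis1* higher by 0.62 and *Mff* lower (a difference of -0.80) in *Mfn1-/-* oocytes.

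**Figure D3:**
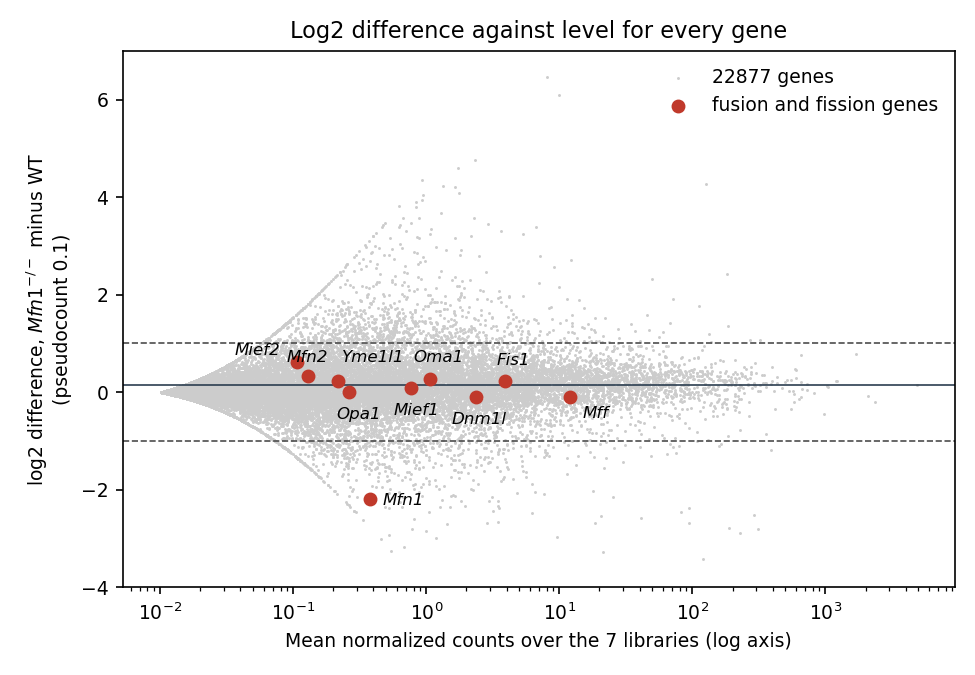
Log2 difference (*Mfn1-/-* minus WT, pseudocount 0.1) against the mean over the 7 libraries (log axis) for 22877 genes (grey) and the 10 fusion and fission genes (red). Dashed lines mark 2-fold and the solid line the median of genes with a mean of at least 1, 0.16. *Mfn1* lies at -2.18 and the other 9 between -0.10 and 0.63.

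By count, 1 of the 10 genes (10%) was past 2-fold, and it was the deleted one. Of all 22877 genes, 7.65% were past 2-fold in either direction, as were 11.5% of genes with a mean of at least 0.1, 8.74% of those with a mean of at least 1 and 5.48% of protein-coding genes. Of the other 9 genes 0 passed the rule, which with 0.1 added asks for more than a 2-fold ratio at low means. The plain ratio of *Mief2* was 2.35. Of the 9, 6 had a higher mean in *Mfn1-/-* oocytes, 2 a lower one and 1 (*Opa1*) equal means. Their median log2 difference was 0.22. Over all genes 56.7% had a higher *Mfn1-/-* mean and the median log2 difference was 0.04. Among the 6226 genes at a mean of 1 or more, these were 65.4% and 0.16. Relative to that median of 0.16, 5 of the 9 lay above (*Mief2*, *Mfn2*, *Oma1*, *Yme1l1* and *Fis1*) and 4 below (*Mief1*, *Opa1*, *Dnm1l* and *Mff*). At 1.5-fold, 1 of the 9 passed, *Mief2*, where 19.3% of all genes did. The fission genes, *Dnm1l* with its adaptors, summed to 18.98 in *Mfn1-/-* against 19.17 in WT oocytes. Their sum was 39.8 times that of the fusion genes in *Mfn1-/-* against 19.5 times in WT oocytes. That fusion sum includes the deleted gene: it went from 0.982 in WT to 0.477 in *Mfn1-/-* oocytes, while *Mfn1* alone fell by 0.558. The higher multiple is therefore no sign of a change in the other genes.

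**Figure D4:**
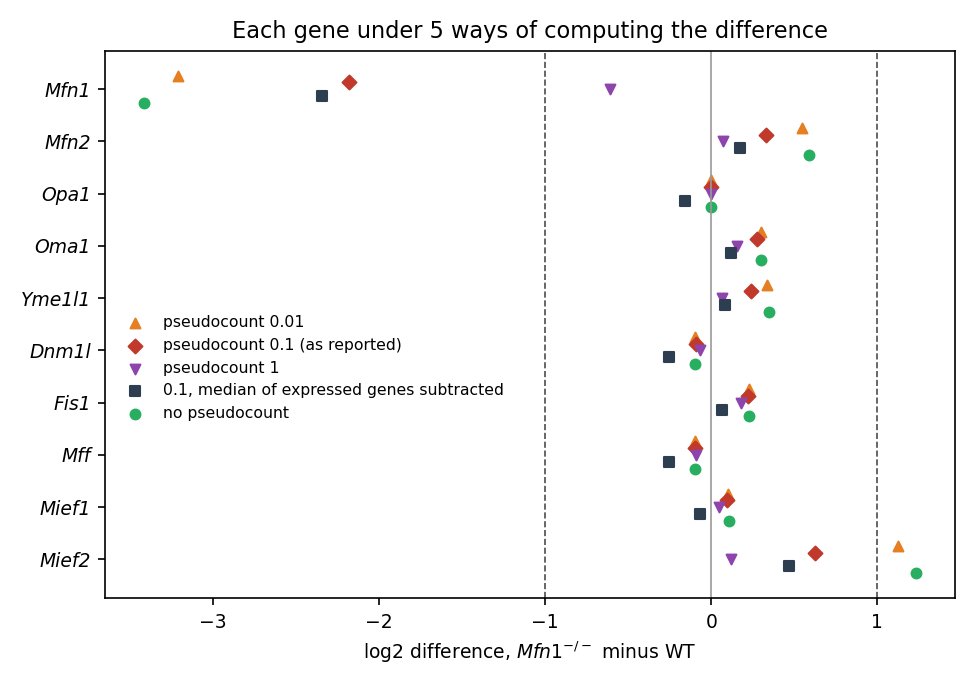
Log2 difference (*Mfn1-/-* minus WT) of each of the 10 genes computed in 5 ways: with pseudocounts of 0.01, 0.1 and 1, with the median of expressed genes subtracted, and with no pseudocount. Dashed lines mark 2-fold. *Mfn1* stays below 0 in all 5 but runs from -3.42 to -0.61, *Mief2* passes 2-fold with a pseudocount of 0.01 and with none, and *Mief1* turns from 0.09 to -0.07 when the median is subtracted.

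The promoters of the 10 genes (RefSeq, GRCm38.p6, 15 windows of 300 bases around annotated starts) had a GC content of 49.0% to 70.3% with a median of 56.7%, against 52.7% over 32851 windows of all genes, and a median of 21 CG dinucleotides against 7. Motifs were searched on both strands, and a gene counted where any of its windows held one. GGGCGG was found in all 10 genes and in 38.2% of 27025 genes, CCAAT in 7 of 10 (*Mfn1*, *Opa1*, *Yme1l1*, *Dnm1l*, *Mff*, *Fis1* and *Mief2*) and in 41.1%, and TATAAA in 0 of 10 and in 15.7%. The E-box CACGTG was found in 1 of 10, *Mief2*, and in 8.09% of all genes, and the palindromic NRF1 motif in 1 of 10, *Opa1*, and in 1.07%. TGACGTCA was found in 0 of 10 and in 2.03% of all genes. The windows of the remaining mitofusin and of *Mief2*, the 2 members with the highest log2 differences, are shown 5′ to 3′ on the strand of the gene with matches to these motifs in capitals. The *Mfn2* window is the first of its 3 annotated starts, at chr4:147904860-147905159 on the minus strand, and that of *Mief2* lies at chr11:60728148-60728447 on the plus strand.
Mfn2: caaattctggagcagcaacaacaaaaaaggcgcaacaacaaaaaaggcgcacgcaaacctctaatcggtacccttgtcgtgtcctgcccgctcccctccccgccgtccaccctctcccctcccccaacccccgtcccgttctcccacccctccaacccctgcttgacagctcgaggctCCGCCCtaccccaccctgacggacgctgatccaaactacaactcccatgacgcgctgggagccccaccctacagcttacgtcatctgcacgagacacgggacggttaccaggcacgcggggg
Mief2: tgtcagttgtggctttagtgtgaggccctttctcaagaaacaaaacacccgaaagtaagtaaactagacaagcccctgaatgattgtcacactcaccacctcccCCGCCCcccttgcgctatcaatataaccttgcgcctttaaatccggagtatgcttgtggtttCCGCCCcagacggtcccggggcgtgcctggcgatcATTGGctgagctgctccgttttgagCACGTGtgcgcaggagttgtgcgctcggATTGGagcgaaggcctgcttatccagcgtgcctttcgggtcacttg
The *Mfn2* window holds 1 GGGCGG match, and the *Mief2* window 2 GGGCGG matches, 2 CCAAT matches and 1 CACGTG match. The other 2 *Mfn2* windows, which are not shown, hold 0 matches to the motifs searched. These matches describe the letters of the windows and were not tied to the levels.

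Beyond the core genes, 39 genes that act on mitochondrial fusion, fission, protein turnover or transport were listed by role, and 38 of them were matched to a row. Past 2-fold were 5 of the 38 (13.2%), 3 higher and 2 lower in *Mfn1-/-* oocytes, where 4.89% and 2.76% of all genes were. Among protein-coding genes 5.48% were past 2-fold either way, and among genes with a mean of at least 0.1 it was 11.5%. All 5 had such a mean, but 6 of the 38 did not, so 13.2% and 11.5% are shares of unlike sets. All genes past 2-fold split into 1118 higher and 631 lower, and into 818 and 916 once the median of 0.16 was subtracted, while 5 of the 38 still passed. The median log2 difference of the 38 was 0.06.

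In the fusion accessory list the *Mfn1-/-* mean was the higher one for all 7 genes, from 0.02 (*Miga1*, at 0.013 and 0.0112) upwards on the log2 scale, where 56.7% of all genes and 65.4% of those with a mean of at least 1 had the higher *Mfn1-/-* mean. The median difference was 0.39. By the plain ratio of the means 3 of the 7 passed 2-fold (*Miga2* at 2.15 and *Slc25a46* at 2 among them), as did 4831 of all 22877 genes. With 0.1 added 1 gene of the list passed, where 7.65% of all genes did. That gene was *Pld6*, a phospholipase of the outer mitochondrial membrane that aids mitofusin-driven fusion and is also needed for piRNA production in germ cells. It averaged 0.589 in *Mfn1-/-* against 0.178 in WT oocytes, a log2 difference of 1.31. *Stoml2*, an inner membrane scaffold with the highest level in the list, averaged 29.4 and 22.9 and a log2 difference of 0.36. *Slc25a46*, an outer membrane protein that binds the fusion machinery, had 0.294 and 0.147, a log2 difference of 0.67. *Miga1* and *Miga2* (0.078 and 0.0362) were the 2 genes of the list with a mean over the libraries under 0.1. The list does not separate genes that aid fusion from genes that restrain it. Whether its shared direction is a rise of fusion-promoting genes was not tested.

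The fission accessory list held the other 4 genes past 2-fold, 2 higher and 2 lower of its 12, where 7.65% of all genes and 11.5% of those with a mean of at least 0.1 passed. *Mtfp1*, an inner membrane protein that promotes fission, had a mean of 0.474 in *Mfn1-/-* against 0.0761 in WT oocytes and the largest log2 difference of all 38 genes, 1.70. *Tbc1d17*, a GTPase-activating protein for RAB proteins that binds FIS1, had means of 0.334 and 0.0732 and a log2 difference of 1.33. It shares 3423 of its 9726 exonic bases with *Il4i1* and 89 with *Akt1s1*, both on the opposite strand, with means of 0.031 and 0.0331 and of 2.89 and 2.39. *Gdap1*, an outer membrane protein whose excess fragments mitochondria, had means of 1.03 in *Mfn1-/-* against 2.3 in WT oocytes and a log2 difference of -1.09. *Spire1*, an actin nucleator that takes part in mitochondrial division and in oocyte spindle positioning, had 0.342 and 0.809, a log2 difference of -1.04. The other 8 of the 12 genes were within 2-fold, among them *Mtfr1l*, the most abundant, with 17.0 and 13.3.

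**Figure D5:**
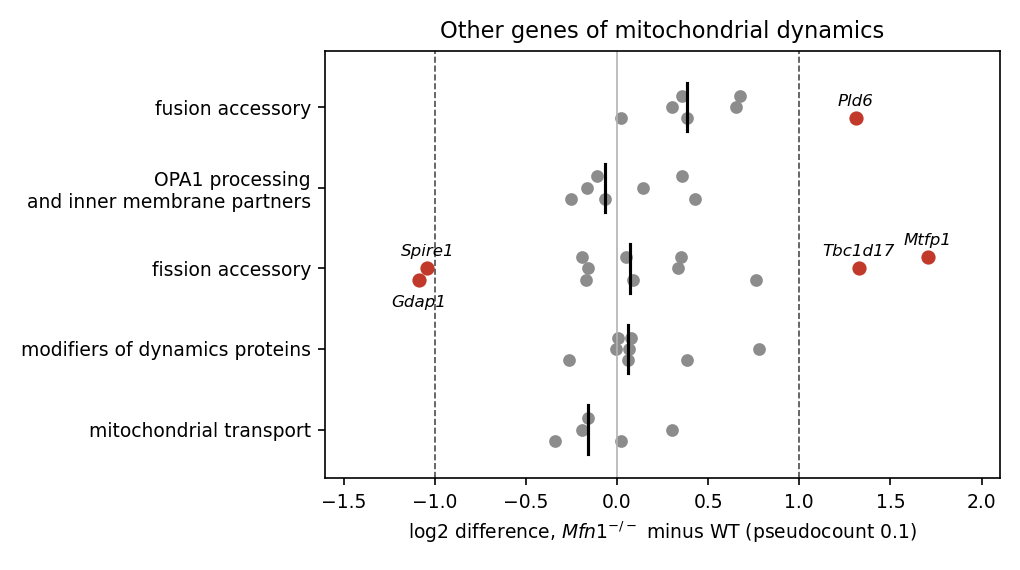
Log2 difference (*Mfn1-/-* minus WT, pseudocount 0.1) of the other dynamics genes by list, 1 point per gene, with the median of each list as a bar and 2-fold as dashed lines. Genes past 2-fold are red and named: *Pld6* (1.31), *Mtfp1* (1.70) and *Tbc1d17* (1.33) on the right and *Gdap1* (-1.09) and *Spire1* (-1.04) on the left. *Stoml2* is in 2 lists.

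In the other lists 0 genes passed 2-fold, where 7.65% of all genes did. The 7 genes of OPA1 processing and of its inner membrane partners had log2 differences from -0.25 (*Afg3l2*) to 0.43 (*Spg7*). *Phb2*, a prohibitin and the most abundant of them, averaged 45.8 in *Mfn1-/-* against 51.3 in WT oocytes. Of the 9 modifiers of dynamics proteins, 8 had a row, with *Mul1*, a ubiquitin and SUMO ligase of the outer membrane, at 8.38 and 7.93, and *Pgam5*, a mitochondrial phosphatase, at the highest log2 difference, 0.78. The 5 genes of mitochondrial transport ran from -0.34 (*Myo19*) to 0.30 (*Rhot2*), and *Rhot2*, which anchors mitochondria to motor proteins, was the most abundant at 2.02 and 1.62.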

How the data were processed

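RNA sequencing covered 3 *Mfn1-/-* and 4 WT libraries, grouped by their titles. Per the study's methods, reads were trimmed with Cutadapt, filtered with the FASTX-Toolkit, aligned with STAR to GRCm38/mm10 and counted per gene. The annotation and the normalization are not given in the sources used here. For every gene the authors deposited a signal per genotype (averaged normalized counts) and a total. In 100% of genes the total lies within 1% of the averages weighted by 3 and 4 libraries, although the series' design text gives 3 per group. Added over genes, the averages come to 142576 (*Mfn1-/-*) and 130160 (WT), and depth per library is unknown. The remaining columns hold the authors' p-value, FDR, ratio and signed fold change for the genotypes and were not used. There were 0 unused columns of per-sample values.

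Log2 differences were computed with a pseudocount of 0.1 and without a filter, and genes past 2-fold were counted. The planned limma fit was for values of single libraries and was not run. "Similar mean" denotes a mean within 2-fold. The rule named the 10 core genes, the listed genes past 2-fold and the most abundant of each list; *Slc25a46*, *Miga1*, *Miga2*, *Slc3a2*, *Afg3l2*, *Spg7*, *Pgam5*, *Myo19* and *Inha* were named after their values were seen. The members and lists were chosen with earlier results of these data known. Of the rows, 24 carry a calendar date in place of a gene name and were matched to no listed gene, and *Marchf5* was left unmatched.

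Positions, exonic lengths and transcripts were taken from GENCODE M21, where 21892 names were found once, and promoters from RefSeq. Transcripts were compared with blastn 2.17.0. Python 3.11.15, numpy 2.4.6, pandas 2.3.3 and matplotlib 3.10.9 were used. The code of the 2-fold rule was tested on simulated data. Known changes larger than 2-fold were put into WT means of at least 1 without noise, so low means were not covered. Alternatives were other pseudocounts, median subtraction, minimum means and 1.5-fold; the plain ratio, protein-coding genes only and subtraction of the lowest mean were added after seeing the data.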

Additional observations from a re-analysis of the deposited data

How the results depend on the processing

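The count of core genes past 2-fold was 1 with a pseudocount of 0.1. It was 2 (*Mfn1* and *Mief2*) with a pseudocount of 0.01, with the plain ratio of means and at 1.5-fold, and 0 with a pseudocount of 1, where *Mfn1* had a log2 difference of -0.61. The count over all genes, 1749, was 3922 with a pseudocount of 0.01, 321 with 1, 4831 with the plain ratio and 4419 at 1.5-fold, 544 among genes with a mean of at least 1 and 854 among protein-coding genes. Of the 38 listed regulators, 5 passed 2-fold, against 0 with a pseudocount of 1, 7 with the plain ratio and 9 at 1.5-fold. The share of *Mfn2* in the WT mitofusin level was 14.6%, and 16.7% if levels were divided by exonic length. That division corrects for length again, on values already largely per length. A larger pseudocount lowers every difference by construction. No paired analysis was possible because the columns give 1 mean per genotype and carry no replicate numbers, and leaving out single libraries could not be run for the same reason. The differences of the 9 other core genes were not set against replicate error, since single libraries were not analysed and the authors' p-values were not used.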
